A study of Mus musculus with 12 samples.

Results

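The genes described here are 10 enzymes of fatty acid synthesis, elongation and desaturation, namely Fasn, Acaca, Scd1, Scd2, Elovl1, Elovl5, Elovl6, Fads1, Fads2 and Fads3. They were given by name, with no threshold on any value, and were found through their Ensembl identifiers among the 46078 gene rows of the count files. All 10 were found, and all 10 passed the filter on low counts. They were measured by RNA sequencing in 12 libraries of macrophages grown from mouse bone marrow over 7 days in medium conditioned by L929 cells, which secrete macrophage growth factors. There were 4 groups of 3 libraries. The Dicer KO cells are titled LysMcre/+;Dicerfl/fl;ApoE-/- and the control cells LysMcre/+;Dicer+/+;ApoE-/-. Both genotypes, the controls too, are therefore labelled as carrying LysM-Cre, a recombinase driven from the myeloid Lyz2 locus, and as lacking Apoe, although the genotype field calls the controls wildtype. All donors were male C57BL/6 mice, whose age is not given in the sources used here. All cells were kept overnight in diluted ethanol in serum-free medium and then received phosphate-buffered saline (the vehicle) or lipopolysaccharide (LPS), the bacterial product sensed by TLR4, at a labelled 100 ng/ul for 6 h. Nothing in the labels says that the replicates were separate mice, so the p-values measure only the spread between these libraries, which may be technical.

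Dicer1 cuts microRNA precursors into mature microRNAs, the short RNAs that lower the stability and translation of the messages they pair with. Fatty acid synthesis starts when Acaca carboxylates acetyl-CoA to malonyl-CoA and Fasn joins these units into palmitate. Elongases of the Elovl family lengthen the chain, stearoyl-CoA desaturases (Scd) place the first double bond in saturated chains, and the Fads desaturases, working in turn with Elovl5, turn dietary linoleic and alpha-linolenic acid into arachidonic acid and other polyunsaturated chains. Most of these genes are known targets of the sterol-regulated transcription factor SREBP-1c, whose gene Srebf1 is itself induced by the oxysterol receptors LXR, and in macrophages their products feed membrane growth and lipid mediators made from arachidonic acid.

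Levels are given in CPM, counts per 1000000 counts, after TMM scaling, which sets the typical gene equal between libraries (trimmed mean of M values). Assigned counts were 16172600 to 18886948 per library. The scaled sizes were 23932845 to 24710818 counts in control vehicle, 15264831 to 16518455 in control LPS, 19420683 to 21489077 in Dicer KO vehicle and 13276305 to 13315645 in Dicer KO LPS, so the scaling moves LPS values upward against plain library totals. Dicer1 was 2.21-fold lower in Dicer KO cells in vehicle and 3.18-fold lower in LPS, without overlap. Lyz2, the locus that carries the Cre, was 405-fold lower in Dicer KO in vehicle and 215-fold lower in LPS, although both genotypes are titled with 1 Cre copy. The groups compared as Dicer KO and control thus differ in Lyz2 as well as in Dicer1. In every genotype comparison below, these 2 differences cannot be told apart, and the part of the Lyz2 difference was not tested. Apoe messages were present at 17.9 ± 1.91 CPM in control vehicle and at 5.61 ± 0.610 CPM in Dicer KO vehicle (SD, n = 3). With LPS they were at 4.24 ± 0.622 CPM in control and 1.20 ± 0.270 CPM in Dicer KO cells. Apoe was thus 3.19-fold lower in Dicer KO in vehicle and 3.52-fold lower in LPS, without overlap, although both genotypes are titled ApoE-/-. All 10 macrophage markers were detected, and their summed level of 7197 to 14170 CPM was lower in Dicer KO, where Lyz2 adds little to the sum. Of 8 adipocyte markers, the cell type best known for these enzymes, 5 (Adipoq, Cidec, Lep, Cfd and Adrb3) were at 0 in every library, and the sum of all 8 reached at most 0.248 CPM. The sum of 6 B cell markers was 85.3 to 107 CPM in control vehicle, 38.8 to 54.3 CPM in Dicer KO vehicle and at most 11.2 CPM in the LPS groups, mostly from Ighm, with all 6 detected. The sum of 7 fibroblast markers, of which Lum was at 0, was at most 1.26 CPM in vehicle, 22.8 to 25.0 CPM in control LPS and 33.9 to 36.7 CPM in Dicer KO LPS, nearly all of it Pdgfrb. The sum of 6 endothelial markers was 106 to 149 CPM in the control groups, 115 to 130 CPM in Dicer KO vehicle and 244 to 282 CPM in Dicer KO LPS, with Emcn at 0 in every library and Kdr leading in LPS. The sum of 6 dendritic cell markers was 1.18 to 1.54 CPM in control vehicle, 2.52 to 4.42 CPM in Dicer KO vehicle, 6.78 to 8.45 CPM in control LPS and 16.6 to 17.8 CPM in Dicer KO LPS, and that of 9 neutrophil markers was 94.2 to 134 CPM in the vehicle groups and 148 to 180 CPM in the LPS groups. All markers of both lists were detected. The part of these marker changes in the results was not tested. In bulk RNA, fewer cells of a type and less RNA per cell cannot be told apart. Library 3 of control vehicle and library 2 of Dicer KO vehicle stood apart from their replicates, with a chi-square per degree of freedom of 9.19 to 13.2 and of 7.87 to 11.1 against 2.43 and 2.21 for the remaining pair. Results in vehicle are given with and without them where a call changes.

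In LPS, 8 of the 10 genes had lower levels in Dicer KO cells and none had a higher level, at an adjusted p under 0.05 in edgeR's quasi-likelihood test with Benjamini-Hochberg adjustment over the 13837 genes tested. Of all genes tested, 55.8% were called in this comparison (28.8% higher and 27.0% lower), so a call alone is common. The median log2 fold change was -1.01 over the 10 genes and -0.03 over all genes. In vehicle 1 of the 10 was called higher (Elovl1) and 2 lower (Scd2 and Fads3), beside 46.2% of all genes called (25.0% higher and 21.2% lower). That count rests on 1 library: without library 3 of control vehicle 7 of the 10 were called in vehicle, and without it and library 2 of Dicer KO vehicle 6 were. The number of all genes called in vehicle moved too, from 6394 with all libraries to between 5254 and 6950 when each library was left out in turn. LPS raised 4 of the 10 in control cells (Fasn, Acaca, Elovl1 and Fads2) and lowered 3 (Elovl5, Fads1 and Fads3), where 79.1% of all genes were called (38.0% higher and 41.1% lower). In Dicer KO cells LPS raised none and lowered 7 (Fasn, Scd1, Scd2, Elovl5, Fads1, Fads2 and Fads3), where 80.1% of all genes were called (37.4% higher and 42.7% lower). The median log2 change with LPS was 0.26 over the 10 genes in control cells and -1.07 in Dicer KO cells, beside -0.06 and -0.10 over all genes. The difference of the LPS responses, tested as an interaction, was negative and called for 7 of the 10 (Fasn, Acaca, Scd1, Scd2, Elovl5, Fads1 and Fads2) and positive for none, beside 33.7% of all genes called and 18.8% called with a negative and 14.9% with a positive sign.

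**Figure D1:**
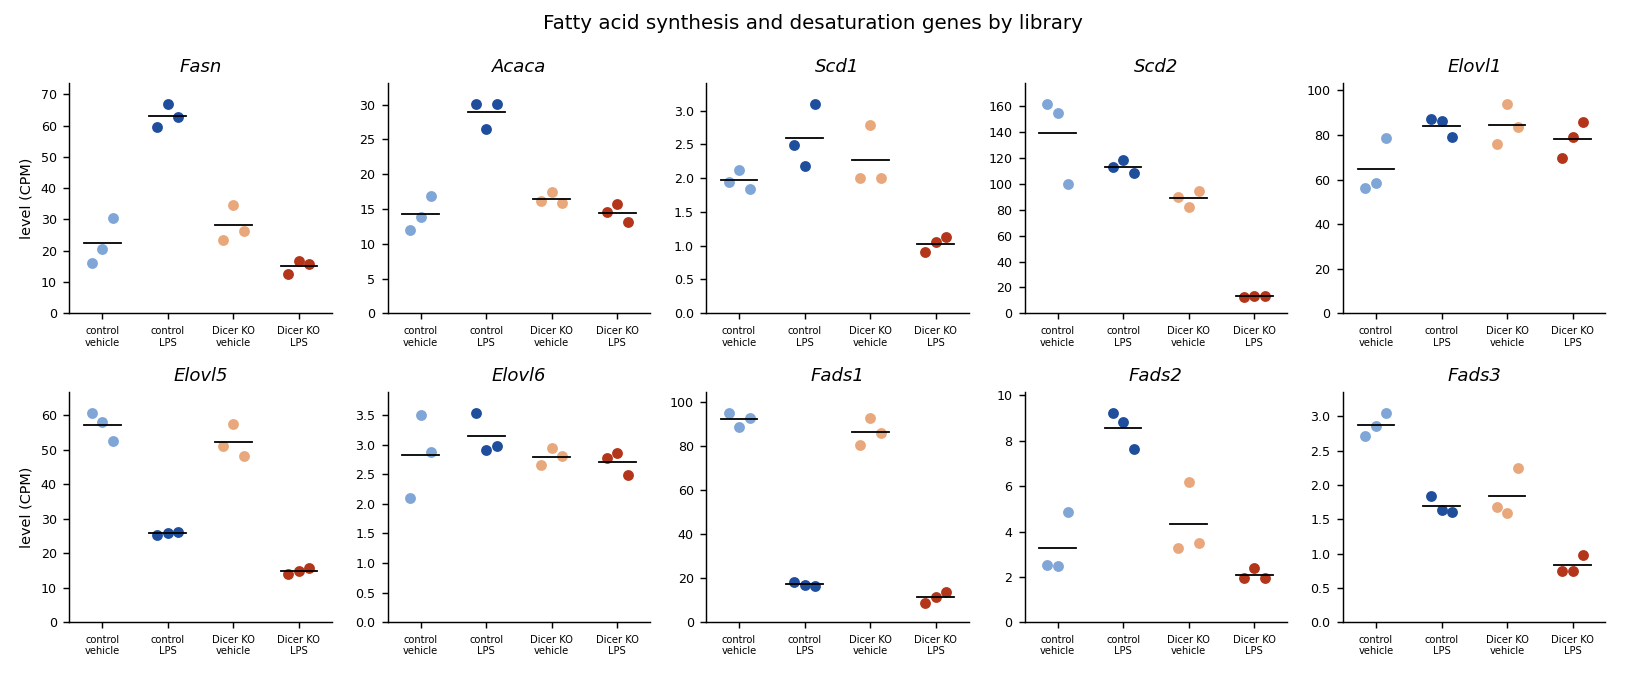
Level of each of the 10 genes in CPM (vertical axes, linear, from 0) in the 12 libraries of the 4 groups. Points are libraries in replicate order and bars are group means. The 3 Dicer KO LPS libraries of Scd2 sit between 12.3 and 13.4 CPM, below all 9 others.

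With plain library totals in place of TMM, the median over all genes moved to -0.12 in vehicle and -0.38 in LPS for Dicer KO against control, to -0.58 in control and -0.85 in Dicer KO for LPS against vehicle, and to -0.27 for the interaction. The members then called higher and lower were 0 and 4 in vehicle, 0 and 10 in LPS, 3 and 4 for the LPS response in control cells, 0 and 10 for that in Dicer KO cells, and 0 and 8 for the interaction. The rises of Fasn, Acaca and Fads2 with LPS in control cells stayed past the threshold under this scaling, at log2 fold changes of 0.98, 0.50 and 0.87.

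RefSeq promoter entries (build GRCm38.p6) were matched for 7 of the 10 genes, and not for Scd1, Scd2 and Fads1. The only Acaca entry (84195188 to 84195437) lies inside the gene, whose annotated start is 84129672. The bases before that annotated start were therefore not searched. The 250 bases before the start of each entry were searched on both strands for CCAAT, the box bound by NF-Y, a factor known to act beside SREBP proteins. It was found in 4 of the 7 (Fasn, Elovl1, Elovl5 and Fads3), and 33.8% of all 32851 promoter windows of this length hold it. The sequences of the 3 genes with more than 1 match are shown because their messages went different ways, Fasn being raised by LPS in control cells while Elovl5 and Fads3 fell. Capitals mark the box, which reads ATTGG where it lies on the other strand. The 3 matches of Fasn start 90, 62 and 59 bases before the start of its entry, the last pair overlapping on opposite strands. Those of Elovl5 start 71 and 17 bases before the start of its entry, and those of Fads3 106 and 78 bases. Entry starts can differ from annotated gene starts. The Fads3 window ends at 10041547, short of its annotated start of 10041569. The Elovl6 window ends at 129532385, past its annotated start of 129532355.
Fasn, chr11:120824548-120824797, minus strand: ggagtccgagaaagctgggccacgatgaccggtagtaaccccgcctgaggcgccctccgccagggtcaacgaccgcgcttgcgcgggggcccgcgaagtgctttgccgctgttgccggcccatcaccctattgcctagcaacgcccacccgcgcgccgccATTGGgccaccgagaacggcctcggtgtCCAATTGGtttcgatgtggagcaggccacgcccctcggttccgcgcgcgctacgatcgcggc
Elovl5, chr9:77917115-77917364, plus strand: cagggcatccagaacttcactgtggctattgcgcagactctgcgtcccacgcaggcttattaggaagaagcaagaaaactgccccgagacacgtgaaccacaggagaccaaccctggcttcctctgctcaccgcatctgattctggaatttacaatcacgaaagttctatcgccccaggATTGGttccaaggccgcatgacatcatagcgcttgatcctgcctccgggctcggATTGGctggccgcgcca
Fads3, chr19:10041298-10041547, plus strand: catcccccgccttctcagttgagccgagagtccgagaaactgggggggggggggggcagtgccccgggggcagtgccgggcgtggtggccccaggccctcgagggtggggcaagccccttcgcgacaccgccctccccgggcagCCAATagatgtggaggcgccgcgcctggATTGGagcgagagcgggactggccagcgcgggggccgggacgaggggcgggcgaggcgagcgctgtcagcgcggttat
The sterol element, searched as TCACNCCAC, was in none of the 7 genes' windows, counting the window inside Acaca, and in 1.05% of all windows. GGGCGG, the core bound by Sp1, was in 3 of the 7 and in 32.7% of all windows, CACGTG, an E-box, in 1 (Elovl5) and in 6.02%, and AGGTCA, a nuclear receptor half-site, in 2 and in 14%. These matches describe letters in a window, and no binding was measured.

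Acaca (ENSMUSG00000020532, chromosome 11, 84129672 to 84401651, plus strand, GRCm38) encodes acetyl-CoA carboxylase 1, which makes malonyl-CoA. Its levels were 12.02, 13.9 and 16.9 CPM in control vehicle, 30.1, 26.6 and 30.1 CPM in control LPS, 16.1, 17.4 and 15.8 CPM in Dicer KO vehicle and 14.5, 15.7 and 13.2 CPM in Dicer KO LPS. The 3 control LPS libraries stood above all others, while the remaining 9 lay close together. LPS raised Acaca 2.03-fold in control cells (log2 fold change 1.02 ± 0.10, SE, adjusted p = 3.02e-08). In Dicer KO cells the change was -0.19 ± 0.11 (adjusted p = 0.136), with groups that do not overlap, and the responses differed by -1.21 ± 0.15 (adjusted p = 9.59e-06). In LPS, Acaca was 2.00-fold lower in Dicer KO cells (adjusted p = 3.63e-07). In vehicle the difference was 0.21 ± 0.10 (adjusted p = 0.112), and it was called without library 3 of control vehicle (0.35, adjusted p = 0.00394) and without both libraries that stood apart (0.31, adjusted p = 0.0108). With library totals, the LPS change in Dicer KO cells was -0.93 and was called.

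Fasn (ENSMUSG00000025153, chromosome 11, 120805846 to 120824547, minus strand) encodes fatty acid synthase, the enzyme that builds palmitate. Its levels were 15.98, 20.5 and 30.5 CPM in control vehicle, 59.5, 67.0 and 62.7 CPM in control LPS, 23.4, 34.7 and 26.2 CPM in Dicer KO vehicle and 12.6, 16.6 and 15.9 CPM in Dicer KO LPS. The order of the groups turned over, with LPS above vehicle in control cells and below vehicle in Dicer KO cells, both without overlap. LPS raised Fasn 2.83-fold in control cells (log2 fold change 1.501 ± 0.22, adjusted p = 0.000115) and lowered it 1.86-fold in Dicer KO cells (-0.90 ± 0.25, adjusted p = 0.0085). The difference of the responses was -2.40 ± 0.33 (adjusted p = 0.000459). In LPS, Fasn was 4.19-fold lower in Dicer KO cells (adjusted p = 5.44e-05), the 149th most negative fold change of all genes tested. The 2 libraries that stood apart were the highest of their groups for Fasn, which was 0.33 ± 0.22 higher in Dicer KO in vehicle (adjusted p = 0.262). Without both libraries that difference was 0.45 and was called (adjusted p = 0.00161).

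Scd1 and Scd2 are neighbouring genes for stearoyl-CoA desaturases, which make oleate and palmitoleate from saturated chains. They are close paralogs, so reads can be split between them or lost at counting. Scd2 (ENSMUSG00000025203, chromosome 19, 44293674 to 44306864, plus strand) was the more abundant by far. Its levels were 162, 155 and 100.1 CPM in control vehicle, 113, 118 and 108 CPM in control LPS, 89.9, 82.0 and 94.6 CPM in Dicer KO vehicle and 12.3, 13.1 and 13.4 CPM in Dicer KO LPS. Dicer KO cells were below control cells in both treatments without overlap, and the Dicer KO LPS group lay far below the rest. LPS lowered Scd2 6.85-fold in Dicer KO cells (log2 fold change -2.78 ± 0.19, adjusted p = 1.91e-07). In control cells the groups overlapped, and the change was -0.30 ± 0.15 (adjusted p = 0.0918). Library 3 was the lowest of control vehicle, and without it the change in control cells was -0.49 and was called (adjusted p = 9.86e-08). The responses differed by -2.48 ± 0.25 (adjusted p = 3.86e-05).

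In LPS, Scd2 was 8.72-fold lower in Dicer KO cells (-3.12 ± 0.19, adjusted p = 2.48e-07), the 39th most negative fold change of all genes tested and the most negative of the 10. In vehicle it was 1.56-fold lower (-0.65 ± 0.15, adjusted p = 0.00556). Mir5114 lies on the same strand over 1.12% of the Scd2 exon bases. Scd1 (ENSMUSG00000037071, chromosome 19, 44394455 to 44407879, minus strand), the main desaturase of liver and fat tissue, was scarce here at 12 to 54 counts per library. Its levels were 1.94, 2.12 and 1.84 CPM in control vehicle, 2.49, 2.18 and 3.10 CPM in control LPS, 2.00, 2.78 and 2.01 CPM in Dicer KO vehicle and 0.902, 1.05 and 1.13 CPM in Dicer KO LPS. The last group alone stood clear of all others. LPS lowered Scd1 2.18-fold in Dicer KO cells (-1.13 ± 0.24, adjusted p = 0.000316). In control cells the change was 0.40 ± 0.19 (adjusted p = 0.0687). It was -0.13 with library totals, and 0.53 and called without library 2 of control LPS (adjusted p = 0.032). The responses differed by -1.52 ± 0.31 (adjusted p = 0.000944), and in LPS Scd1 was 2.51-fold lower in Dicer KO (adjusted p = 0.000139).

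Of the 3 elongases, only Elovl5 was called lower with LPS, in both genotypes, with all libraries and TMM scaling. Elovl5 (ENSMUSG00000032349, chromosome 9, 77917364 to 77984519, plus strand) lengthens polyunsaturated chains between the steps of Fads2 and Fads1. Its levels were 60.7, 58.2 and 52.6 CPM in control vehicle, 25.3, 25.8 and 26.2 CPM in control LPS, 51.2, 57.3 and 48.1 CPM in Dicer KO vehicle and 14.1, 14.7 and 15.8 CPM in Dicer KO LPS. LPS libraries were below vehicle libraries in both genotypes, and the genotypes overlapped in vehicle but not in LPS. LPS lowered Elovl5 2.22-fold in control cells (-1.15 ± 0.07, adjusted p = 3.62e-11) and 3.51-fold in Dicer KO cells (-1.81 ± 0.08, adjusted p = 1.66e-13). The difference of these responses was -0.66 ± 0.11 (adjusted p = 0.000158). In LPS, Elovl5 was 1.73-fold lower in Dicer KO cells (adjusted p = 3.84e-07). In vehicle the difference was -0.13 ± 0.07 (adjusted p = 0.116), and without the 2 libraries that stood apart it was -0.26 and was called.

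Elovl1 (ENSMUSG00000006390, chromosome 4, 118428093 to 118432953, plus strand) makes saturated and monounsaturated very long chains for sphingolipids. Exons of Cdc20 lie on the opposite strand over 1.94% of its exon bases, and the strand setting of the counting is not given in the sources used here. Its levels were 56.4, 58.5 and 78.8 CPM in control vehicle, 87.1, 86.1 and 78.9 CPM in control LPS, 75.9, 94.0 and 83.8 CPM in Dicer KO vehicle and 69.6, 79.1 and 85.6 CPM in Dicer KO LPS. Only the first 2 control vehicle libraries lay below the range of the other groups. LPS raised Elovl1 1.30-fold in control cells (0.38 ± 0.13, adjusted p = 0.0166), but with library totals the change was -0.14 and not called. Without library 1 or library 2 of control vehicle the rise was also lost, at 0.29 (adjusted p = 0.0611) and 0.31 (adjusted p = 0.0565). Elovl1 was 1.31-fold higher in Dicer KO in vehicle (0.39 ± 0.13, adjusted p = 0.0255), with overlapping groups. Library totals ended that call (0.26, adjusted p = 0.0934), as did leaving out library 1 or 2 of control vehicle or library 2 or 3 of Dicer KO vehicle (0.30 to 0.40). In LPS the genotypes differed by -0.11 ± 0.13 (adjusted p = 0.518) and the LPS change in Dicer KO cells was -0.11 ± 0.13 (adjusted p = 0.43). With library totals both were called lower, at -0.46 (adjusted p = 0.00654) and -0.86 (adjusted p = 3.25e-05). The difference of the responses, -0.49 ± 0.18, missed the threshold (adjusted p = 0.056), and was -0.66 and called without library 3 of control vehicle. It was also called with DESeq2 (-0.45, adjusted p = 0.0315), with library totals (-0.72) and without both libraries that stood apart (-0.58). Leaving out library 1 of Dicer KO vehicle or library 3 of Dicer KO LPS gave a call too (both -0.57). With single libraries left out, the value ran from -0.66 to -0.41.

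Elovl6 (ENSMUSG00000041220, chromosome 3, 129532355 to 129638495, plus strand), which lengthens palmitate to stearate, was not called in any comparison. Its levels were 2.10, 3.503 and 2.88 CPM in control vehicle, 3.54, 2.91 and 2.98 CPM in control LPS, 2.65, 2.94 and 2.80 CPM in Dicer KO vehicle and 2.78, 2.85 and 2.49 CPM in Dicer KO LPS. The groups overlapped in every comparison except Dicer KO against control in LPS, where the change was -0.21 ± 0.20 (adjusted p = 0.39). At 33 to 86 counts per library, the SE of its fold changes was 0.18 to 0.27 on the log2 scale. With library totals it was called lower in Dicer KO in LPS (-0.56, adjusted p = 0.0183) and with LPS in Dicer KO cells (-0.79, adjusted p = 0.000956). The lncRNA gene Gm35986 lies opposite 0.529% of its exon bases.

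The Fads genes form a cluster on chromosome 19. Fads2 (ENSMUSG00000024665, 10062765 to 10101746, minus strand) encodes the delta-6 desaturase that opens the polyunsaturated pathway. Its levels were 2.51, 2.48 and 4.85 CPM in control vehicle, 9.24, 8.84 and 7.63 CPM in control LPS, 3.26, 6.18 and 3.4996 CPM in Dicer KO vehicle and 1.95, 2.40 and 1.96 CPM in Dicer KO LPS. As with Fasn, LPS libraries were above vehicle libraries in control cells and below them in Dicer KO cells, both without overlap. LPS raised Fads2 2.61-fold in control cells (1.39 ± 0.26, adjusted p = 0.000203) and lowered it 2.03-fold in Dicer KO cells (-1.02 ± 0.33, adjusted p = 0.0112). The responses differed by -2.41 ± 0.42 (adjusted p = 0.000551). In LPS, Fads2 was 4.06-fold lower in Dicer KO cells (adjusted p = 7.25e-05). In vehicle it was 0.39 ± 0.27 higher in Dicer KO (adjusted p = 0.269), 0.77 without library 3 of control vehicle (adjusted p = 0.00869) and 0.44 without both libraries that stood apart (adjusted p = 0.0513).

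Fads1 (ENSMUSG00000010663, 10182888 to 10196877, plus strand) encodes the delta-5 desaturase that makes arachidonic acid. Its levels were 95.2, 88.6 and 92.8 CPM in control vehicle, 18.1, 17.1 and 16.5 CPM in control LPS, 80.7, 92.9 and 86.1 CPM in Dicer KO vehicle and 8.87, 11.3 and 13.7 CPM in Dicer KO LPS. It thus fell with LPS in both genotypes, opposite to Fads2 in control cells. The fall was 5.35-fold in control cells (-2.42 ± 0.09, adjusted p = 4.01e-14) and 7.67-fold in Dicer KO cells (-2.94 ± 0.10, adjusted p = 8.3e-15). The responses differed by -0.52 ± 0.14 (adjusted p = 0.00756). In LPS, Fads1 was 1.53-fold lower in Dicer KO (adjusted p = 0.000207), and in vehicle the difference was -0.09 ± 0.08 (adjusted p = 0.343).

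Fads3 (ENSMUSG00000024664, 10041569 to 10060110, plus strand), known for desaturating sphingoid bases, had the fewest counts of the 10 in Dicer KO LPS, 10 to 13 per library. Its levels were 2.71, 2.85 and 3.05 CPM in control vehicle, 1.83, 1.63 and 1.61 CPM in control LPS, 1.68, 1.60 and 2.24 CPM in Dicer KO vehicle and 0.751, 0.751 and 0.979 CPM in Dicer KO LPS. Both LPS and Dicer KO went with lower levels, without overlap in any of the 4 comparisons. LPS lowered Fads3 1.69-fold in control cells (-0.76 ± 0.18, adjusted p = 0.00103) and 2.22-fold in Dicer KO cells (-1.15 ± 0.24, adjusted p = 0.000288). Dicer KO was 1.56-fold lower in vehicle (-0.64 ± 0.17, adjusted p = 0.00553) and 2.04-fold lower in LPS (-1.03 ± 0.26, adjusted p = 0.00225). The difference of the responses was -0.39 ± 0.31 (adjusted p = 0.389), so the data did not separate the LPS responses of the 2 genotypes for this gene.

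**Figure D2:**
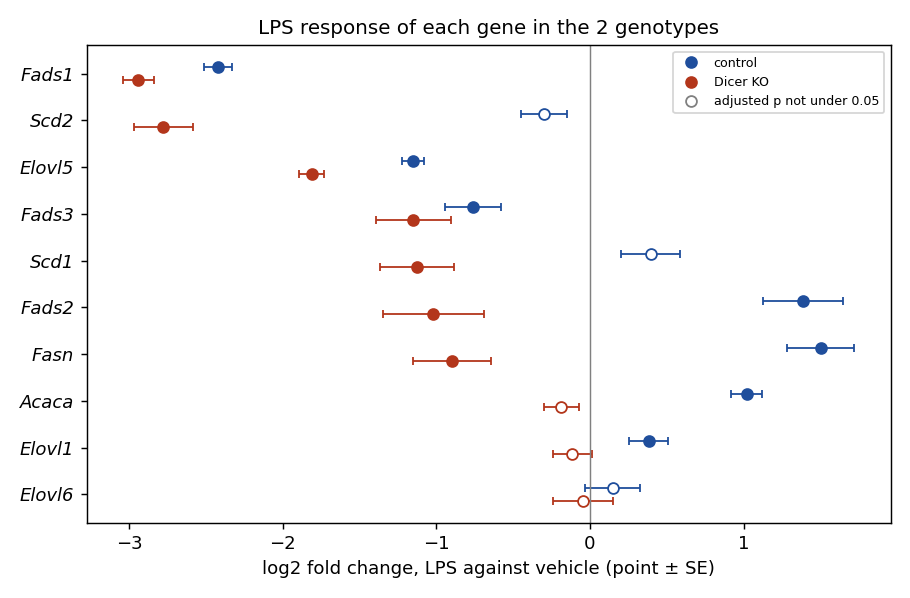
Log2 fold change of LPS against vehicle (horizontal axis, point ± SE) for each of the 10 genes, in control (blue) and Dicer KO cells (red); open points did not pass an adjusted p of 0.05. Fasn and Fads2 lie on opposite sides of 0 in the 2 genotypes, at 1.501 and -0.90 and at 1.39 and -1.02.

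**Figure D3:**
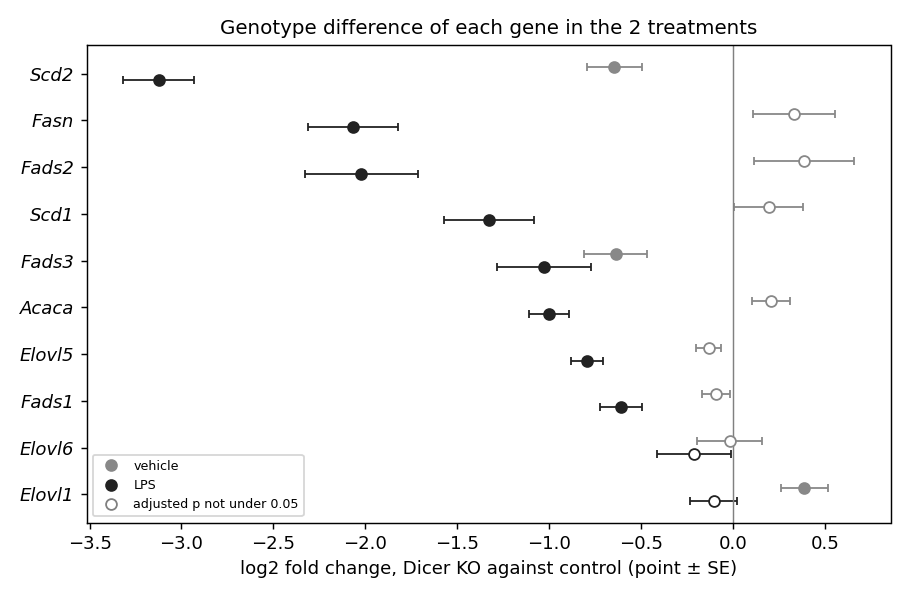
Log2 fold change of Dicer KO against control (horizontal axis, point ± SE) for each of the 10 genes, in vehicle (grey) and in LPS (black); open points did not pass an adjusted p of 0.05. Of the LPS points, 8 are filled and all of these lie below 0, from -0.61 for Fads1 to -3.12 for Scd2, while 3 vehicle points are filled.

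Levels were compared between genes per kilobase of exon. In control vehicle Scd2 (25.4 ± 6.20 CPM per kilobase, SD, n = 3) and Elovl1 (23.7 ± 4.53) led and overlapped, followed by Fads1 (19.2 ± 0.701) and Elovl5 (16.2 ± 1.17). Fasn came next at 2.04 ± 0.677, then Fads2, Acaca, Fads3, Elovl6 and Scd1, from 0.995 ± 0.412 down to 0.402 ± 0.0289. Neighbours overlapped from Fasn to Fads3 and again between Elovl6 and Scd1. In control LPS, Elovl1 led with 30.8 ± 1.65, and Fasn, at 5.76 ± 0.342, stood above Fads1, at 3.58 ± 0.174, without overlap. In Dicer KO vehicle the order was Elovl1, Fads1, Scd2 and Elovl5, and the last 3 overlapped their neighbours. In Dicer KO LPS, Elovl1 stood at 28.7 ± 2.96, and the next was Elovl5 at 4.22 ± 0.253. Scd2 (2.37 ± 0.103) and Fads1 (2.34 ± 0.503) overlapped there, and Scd1 was last at 0.210 ± 0.0237, overlapping Fads3 at 0.218 ± 0.0347. Exon bases are the union over all annotated transcripts, so the level per kilobase is lowered for genes with long unused exons.

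Likeness of profiles was measured as the root mean square difference of log2 CPM, centred on each gene, over the 12 libraries. Among the 10 genes, Fasn and Fads2 were the closest pair at 0.168, and Fasn and Fads1 the farthest at 1.61. Among 11800 other protein-coding genes the nearest to Fasn was Stard4, a cytosolic carrier of cholesterol, at 0.251, followed by Pgp (0.320) and Sqle (0.355), an enzyme of cholesterol synthesis. Stard4 (0.307) and Pgp (0.346) were also the nearest to Fads2. Stard4 had mean levels of 18.7 CPM in control vehicle, 66.0 CPM in control LPS, 22.1 CPM in Dicer KO vehicle and 17.7 CPM in Dicer KO LPS. Nearest to Elovl5 were Mef2d (0.0967), Eif4ebp2 and Rp9, and nearest to Fads1 were Paqr7 (0.115), Rab3il1 and Amz1. Rab3il1 is known as a neighbour of the Fads cluster. Scd2 had no close match, its nearest being Selenbp1 at 0.393, Nthl1 and D330045A20Rik. The nearest were Ccdc38 (0.143), Hps3 and Elmsan1 to Acaca, Zfp874a (0.156), Mphosph10 and Pde4dip to Scd1, and Abhd11 (0.155), Nrm and Cd3eap to Fads3. Those of Elovl1 were Isyna1 (0.0989), Pfn1 and Psmc1, and those of Elovl6 were Zfp712 (0.0916), Ints2 and Taf13.

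Because the Dicer KO cells are labelled as lacking the enzyme that makes microRNAs, the 3' UTRs of the 10 genes were read for seed matches of 6 microRNAs known from macrophages or lipid metabolism. The mature sequences of the 5 that matched are shown first, from RefSeq (GRCm38.p6), with the seed (bases 2 to 8) in capitals. Below them stand the matched sites with the complement of the seed in capitals.
let-7a-5p: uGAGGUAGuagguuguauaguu
miR-155-5p: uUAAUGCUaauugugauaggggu
miR-146a-5p: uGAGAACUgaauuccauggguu
miR-223-3p: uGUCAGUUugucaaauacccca
miR-33-5p: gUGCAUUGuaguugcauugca
Scd1, let-7a-5p: gatcctccCTACCTCcaactc
Scd2, let-7a-5p: ttcctgacCTACCTCcacggg
Fads2, miR-155-5p: tccctgtcAGCATTAtggtgt
Fads2, miR-146a-5p: caaggaaaAGTTCTCtcatgc
Fasn, miR-223-3p: tcacacagAACTGACcatgtg
Elovl6, miR-223-3p: gttgaaatAACTGACcactaa
Acaca, miR-33-5p: cttcagtcCAATGCActcttc
There were 7 matches in 6 of the 10 genes, and none for miR-21a-5p. Over 11750 3' UTRs, the shares with a match were 9.49% for let-7a-5p, 8.46% for miR-155-5p, 11.3% for miR-146a-5p, 8.54% for miR-223-3p, 6.76% for miR-33-5p and 7.00% for miR-21a-5p. MicroRNAs themselves were not measured. Of the 6 genes with a match, none was called higher in Dicer KO with all libraries, and Scd2 was called lower in vehicle. Without library 3 of control vehicle, Fasn, Acaca and Fads2 were called higher in vehicle, at 0.62, 0.35 and 0.77. Without both libraries that stood apart they were at 0.45, 0.31 and 0.44, and Fads2 was not called (adjusted p = 0.0513). In LPS 5 of these 6, all but Elovl6, were called lower in Dicer KO, beside 8 of all 10 members and 27.0% of all genes.

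The regulators of the pathway were read from a list of 13 genes, of which 12 were tested. Srebf1 was at 54.4, 55.0 and 62.3 CPM in control vehicle, 90.1, 99.0 and 95.8 CPM in control LPS, 50.4, 62.4 and 58.3 CPM in Dicer KO vehicle and 53.5, 51.4 and 53.5 CPM in Dicer KO LPS. As with Acaca, the control LPS libraries alone stood above the rest. LPS raised Srebf1 1.66-fold in control cells (adjusted p = 1.91e-08), the responses differed by -0.84 ± 0.10 (adjusted p = 6.84e-06), and in LPS it was 1.80-fold lower in Dicer KO (adjusted p = 1.88e-08). Srebf2, which encodes the SREBP that drives cholesterol synthesis, rose 2.93-fold with LPS in control cells (adjusted p = 2.05e-05), and its responses differed by -1.26 ± 0.25 (adjusted p = 0.00386). Insig1, an SREBP target that holds SREBPs back in the endoplasmic reticulum, rose 4.20-fold with LPS in control cells, and its responses differed by -1.53 ± 0.35 (adjusted p = 0.00943). Both were highest, within their groups, in the 2 vehicle libraries that stood apart.

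Nr1h3, which encodes LXR alpha, was 1.80-fold higher in Dicer KO than in control cells in vehicle (0.84 ± 0.10, adjusted p = 5.75e-06). LPS raised it 2.73-fold in control and 1.71-fold in Dicer KO cells, and the responses differed by -0.68 ± 0.14 (adjusted p = 0.00143). In LPS the genotypes overlapped for Nr1h3, with a difference of 0.17 ± 0.10 (adjusted p = 0.151). Nr1h2, which encodes LXR beta, was 1.20-fold lower in Dicer KO in LPS, and Rxra, the partner of both, was 1.53-fold lower in vehicle and 2.45-fold lower in LPS (adjusted p = 4.22e-09). Mbtps1, a protease that releases SREBPs, fell 1.71-fold with LPS in control and 1.95-fold in Dicer KO cells. Of the 12 genes, 1 was called higher and 6 lower in Dicer KO in LPS (median -0.17), and 1 higher and 6 lower in the interaction (median -0.24), beside medians of -0.03 and -0.04 over all genes. Of all genes, 28.8% were called higher and 27.0% lower in the first of these comparisons, and 14.9% and 18.8% in the second. Rxra had a called interaction too, of -0.68 ± 0.12 (adjusted p = 0.000346).

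**Figure D4:**
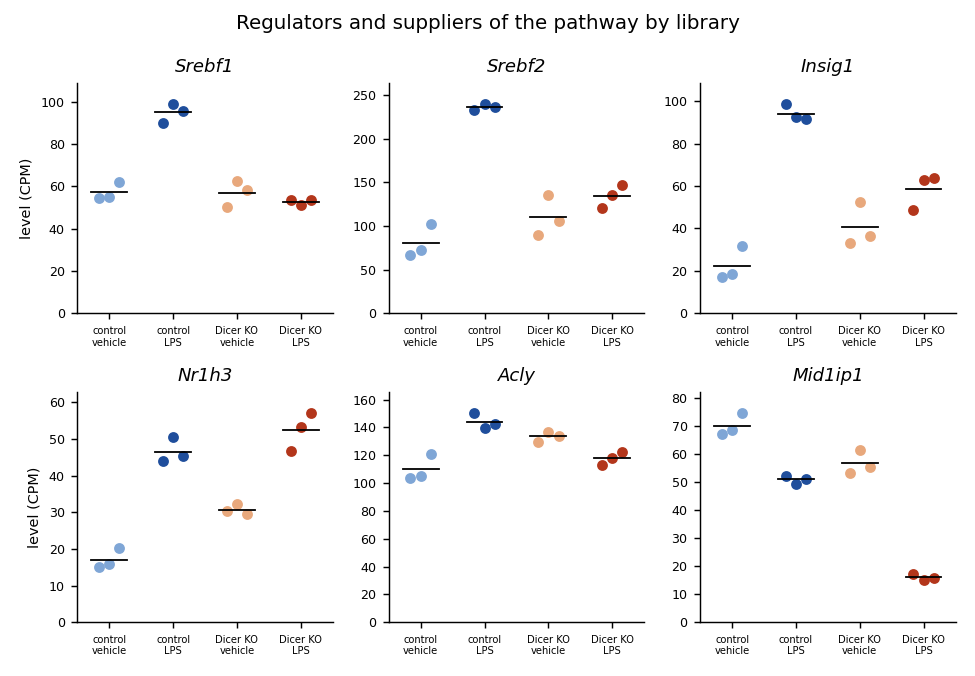
Level in CPM (vertical axes, linear, from 0) of Srebf1, Srebf2, Insig1, Nr1h3, Acly and Mid1ip1 in the 12 libraries of the 4 groups. Points are libraries in replicate order and bars are group means. Srebf1 lies at 90.1 to 99.0 CPM in control LPS and at 50.4 to 62.4 CPM in all other libraries.

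Genes that feed the pathway were read next, and their counts for Dicer KO in LPS stand against 28.8% higher and 27.0% lower over all genes. Of 11 tested genes for acetyl-CoA, malonyl-CoA and NADPH supply, 1 was called higher and 5 lower in Dicer KO in LPS, with a median of -0.20. Acly, which makes cytosolic acetyl-CoA, rose 1.31-fold with LPS in control cells (adjusted p = 7.95e-06), a rise that turned to -0.13 with library totals, and its responses differed by -0.57 ± 0.08 (adjusted p = 4.8e-05). Mid1ip1, whose product makes Acaca polymerize into its active form, was at 49.4 to 52.1 CPM in control LPS and at 14.9 to 17.2 CPM in Dicer KO LPS. It was 3.19-fold lower in Dicer KO in LPS (adjusted p = 5.38e-12), and its responses differed by -1.37 ± 0.10. Exons of Gm14493 lie opposite 25.5% of the Mid1ip1 exon bases, and the strand setting of the counting is not given. Idh1, a source of NADPH, fell 4.99-fold in control and 5.21-fold in Dicer KO cells with LPS. Of 6 tested genes of AMPK, the kinase that inactivates Acaca, and its activator Stk11, 1 was called higher and 2 lower in Dicer KO in LPS (median -0.05), a share near that of all genes called, 55.8%. With LPS, 3 were raised (Prkaa1, Prkab1 and Stk11) and 3 lowered in each genotype. Calls were common there, at 79.1% of all genes in control and 80.1% in Dicer KO cells. The subunit genes Prkag2 and Prkab2 fell by 27.4-fold and 1.87-fold in control cells and by 36.0-fold and 3.45-fold in Dicer KO cells. Exons of Prkag2os1 and Prkag2os2 lie opposite 14.5% of the Prkag2 exon bases.

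Of 6 tested genes of mitochondrial fatty acid synthesis, a separate pathway that makes lipoic acid precursors, none was called in the interaction or in vehicle, and Mcat was called higher in Dicer KO in LPS. Over all genes, 33.7% were called in the interaction, 46.2% in vehicle and 55.8% in LPS. Mcat and Mecr rose with LPS in control cells by 1.58-fold and 1.38-fold, but with library totals the change of Mcat was 0.14 and not called and that of Mecr was -0.05. Of 8 other elongation genes, 3 were called higher and 2 lower in Dicer KO in LPS, and 1 higher and 1 lower in the interaction. These 5 of 8 in LPS are near the 55.8% of all genes called there, and the median was 0.08. The interaction was called for 33.7% of all genes. Hacd4, a dehydratase of the elongation cycle, fell 6.20-fold with LPS in control cells and 4.70-fold in Dicer KO cells. Elovl2, the elongase of longer polyunsaturated chains, had 0 to 2 counts per library in vehicle. With LPS it had 27 to 39 counts in control cells and 46 to 59 in Dicer KO cells, where it was 1.96-fold higher (adjusted p = 0.000485). Of 8 genes of other desaturases and of the cytochrome b5 chain that supplies their electrons, 2 were called higher and 5 lower in Dicer KO in LPS (median -0.30), beside 28.8% higher and 27.0% lower over all genes. LPS raised 4 and lowered 4 of them in control cells, and raised 3 and lowered 4 in Dicer KO cells. Of all genes, 79.1% were called with LPS in control cells and 80.1% in Dicer KO cells. Cyb5r1 and Cyb5a fell with LPS, with log2 fold changes of -1.51 and -1.32 in control cells and of -1.78 and -1.59 in Dicer KO cells.

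Enzymes that use the products were also read. Of 7 tested acyl-CoA synthetase and binding genes, 1 was called higher and 4 lower in Dicer KO in LPS (median -0.20), beside 28.8% higher and 27.0% lower over all genes. With LPS the log2 fold change of Acsl1 was 4.05 in control and 3.71 in Dicer KO cells, and Slc27a1 fell 4.66-fold and 3.69-fold. Of 8 acyltransferases that place acyl chains into phospholipids, LPS raised 6 and lowered none in control cells, and raised 2 and lowered 3 (Lpcat1, Lpcat3 and Mboat1) in Dicer KO cells. Of all genes, 38.0% were raised in control cells, and 37.4% were raised and 42.7% lowered in Dicer KO cells. In LPS, 6 of the 8 were called lower in Dicer KO (median -0.78), beside 27.0% of all genes. Agpat3 showed a difference of responses of -0.56 ± 0.07 (adjusted p = 1.66e-05), whereas Lpcat2 rose in both genotypes, 3.01-fold and 3.57-fold.

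Cholesterol synthesis and the LXR targets of cholesterol efflux were set beside the 10 genes for comparison, without a test between lists. Of 20 cholesterol synthesis genes, 16 were raised by LPS in control cells (median 2.12), 17 were lower in Dicer KO in LPS (median -0.95), and 17 were called negative in the interaction (median -1.52). Over all genes the shares were 38.0%, 27.0% and 18.8%. In Dicer KO cells LPS still raised 12 of the 20 (median 0.69), where it raised none of the 10 fatty acid genes and 37.4% of all genes. Mvd and Fdps, both of the mevalonate pathway, had interactions of -1.56 ± 0.14 and -2.25 ± 0.32. Fdps had only 12 to 17 counts per library in control vehicle and 11 to 16 in Dicer KO vehicle. Gm43738 lies on the same strand over 26.7% of its exon bases, and how shared reads were counted is not given. The 10 fatty acid genes shared the negative interaction in 7 of 10 cases but were raised by LPS in control cells in only 4. Of 8 tested LXR targets of efflux, 4 were called higher and none lower in Dicer KO in LPS (median 0.40), beside 28.8% higher and 27.0% lower over all genes. Abcg1, an exporter of cholesterol, was at 106 to 118 CPM in control LPS and 344 to 373 CPM in Dicer KO LPS, and its interaction was 1.02 ± 0.08 (adjusted p = 8.94e-08). Arl4c had an interaction of 1.24 ± 0.16. In all, 4 of these 8 genes were called positive and 2 negative in the interaction, against 0 positive and 7 negative among the 10 fatty acid genes. Over all genes, 14.9% were called positive and 18.8% negative.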

How the data were processed

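The authors deposited 1 file per library with whole-number read counts per Ensembl gene; per the submitters' processing notes, STAR 2.5 and DESeq2 and the builds mm10 and GRCm38.p5 were used. The library kit keeps strand, per the labels' protocols. How reads were counted, with which strand setting and which annotation, is not given in the sources used here. Rows that name no gene (45.8 to 46.8% of reads without a feature, 9.85 to 11.6% not unique) were left out. GENCODE M21 (GRCm38) gave symbols and coordinates to 45143 of 46078 rows; unmatched rows held 0.141% of counts. Counts were fitted with edgeR 4.0.16 (R 4.3.3; filterByExpr, TMM, robust quasi-likelihood, 1 mean per group, 12 libraries), tested two-sided in 5 comparisons and adjusted by Benjamini-Hochberg over 13837 genes; SE is on the log2 scale. DESeq2 1.42.0 and other scalings, filters and samples were tried as alternatives. On simulated counts the fit was tested as well. The members, lists and tests were chosen with earlier results of these data known. Named genes are the members, the design checks, 6 set regulators, the 2 with the smallest adjusted p of each other list, and the 3 nearest profiles of each member, of which 1 is not reported here.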

Additional observations from a re-analysis of the deposited data

Results flagged for a closer look

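These genes, of those named by the rule, were set apart because the test of the interaction found that their LPS response differed between Dicer KO and control cells. Among the 10 fatty acid genes the differences (log2, Dicer KO minus control) were -2.48 for Scd2, -2.41 for Fads2, -2.40 for Fasn, -1.52 for Scd1, -1.21 for Acaca, -0.66 for Elovl5 and -0.52 for Fads1. Among the regulators they were -0.84 for Srebf1, -1.26 for Srebf2, -0.68 for Nr1h3, -0.68 for Rxra, -1.53 for Insig1 and -0.88 for the AMPK subunit gene Prkab2. Acly had -0.57, Mid1ip1 -1.37, Agpat3 -0.56 and Acsl1 -0.35, while Hacd4 had 0.40 and Slc27a1 0.33, which with library totals were 0.17 and 0.11 and not called. The cholesterol synthesis genes Mvd and Fdps had -1.56 and -2.25, and the LXR targets Arl4c and Abcg1 had 1.24 and 1.02. The 2 genes that check the design had -0.52 (Dicer1) and 0.91 (Lyz2). Of all genes tested, 33.7% were called in this comparison, so a call by itself is common here.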

How the results depend on the processing

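The number of the 10 genes called in vehicle, 3 with all libraries, was 7 without library 3 of control vehicle and 6 without that library and library 2 of Dicer KO vehicle together, and 2 to 7 when each library was left out in turn. The corresponding ranges were 8 to 8 for Dicer KO against control in LPS, 6 to 8 and 7 to 7 for the LPS response in control and Dicer KO cells, and 7 to 8 for the interaction. Over all genes, the number called ran from 5254 to 6950 in vehicle and from 6979 to 8004 in LPS. It ran from 10586 to 11153 and from 10735 to 11287 for the LPS response in control and Dicer KO cells, and from 4021 to 5021 for the interaction. With library totals in place of TMM, all genes called higher and lower moved from 3459 and 2935 to 2229 and 4577 in vehicle, from 3983 and 3741 to 1885 and 7626 in LPS, from 5258 and 5690 to 3066 and 8737 for the LPS response in control cells, from 5173 and 5905 to 2637 and 9623 for that in Dicer KO cells, and from 2067 and 2602 to 997 and 5136 for the interaction. Under this scaling the LPS changes in control cells turned to -0.14 for Elovl1, -0.13 for Scd1, -0.37 for Elovl6, -0.13 for Acly and -0.054 for Mecr; the shift of the median over all genes is given with the results. Elovl1 was also not called in vehicle without the filter on low counts or with only the groups compared fitted (0.36 and 0.38), nor for LPS in control cells without the filter (0.33); the cause was not tested. Near 0, signs turned for Elovl6 (0.033 for LPS in Dicer KO cells with DESeq2) and for Scd1 in vehicle (-0.018 without both libraries that stood apart). When each library was left out in turn, the values of Elovl6 ran from -0.20 to 0.16 for Dicer KO against control in vehicle, from -0.029 to 0.33 for LPS in control cells and from -0.084 to 0.012 for LPS in Dicer KO cells. The replicate numbers did not pair the libraries (4 of 18 same-numbered pairs correlated above 0.1, and 4 of 12 libraries were nearest to one of their own number). With a replicate block, the interaction of Elovl1 was called (-0.51, adjusted p = 0.0321), and no other call on the 10 genes changed. Depth limits Scd1, Elovl6, Fads2 and Fads3, with 10 to 146 counts per library.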
